A study of Mus musculus with 9 samples.

Results

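The population named Pre/pro B cells was followed in single-cell RNA-Seq of bone marrow mononuclear cells from mice. Its members are the 20 genes that the deposited table of top markers lists for it, taken by the name in the population column, out of 293 entries for 17 populations and 234 different genes. The samples came from 9 C57BL/KaLwRij mice, aged 12 weeks per the labels, of which 3 carried the agent label CST6, 3 PBS and 2 Control, and 1 had no label for its agent. These counts are uncertain for single samples, because the title of a sample labelled PBS is of the form that the titles of the controls have and the methods describe groups of the same size. In the study, mice of the CST6 and PBS groups had received 5TGM1 myeloma cells through the tail vein and then recombinant mouse cystatin M/E or the vehicle, while controls had received no myeloma cells. A sort for GFP-negative cells was used to deplete the myeloma cells, so the population was measured in marrow cells other than the tumor, in mice with and without it. The table pools all mice and compares each population with all other cells. Differences between CST6, PBS and Control were for this reason not analysed here, and no value below has a replicate error or a test.

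B cells are made in the bone marrow from lymphoid progenitors. The factors Tcf3, Ebf1 and Pax5 commit a cell to the lineage, the heavy chain gene is rearranged first, and the new mu heavy chain is then tested at the cell surface together with a surrogate light chain, made of VpreB and lambda-like proteins, and the signalling chains Cd79a and Cd79b. This pre-B receptor drives a burst of division before the light chain gene is rearranged. Genes of the surrogate light chain are known to be shut off as cells mature, whereas those of the heavy chain and the signalling chains stay on.

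Markers of the lineage led the list. Ebf1, the factor that opens the B cell program, had the highest area under the receiver operating characteristic curve (AUC), 0.985, a score that reaches 1 for a gene whose level parts these cells fully from the others and is 0.5 by chance. It was above 0 in 99.9% of Pre/pro B cells and in 45.9% of all other cells, with a log2 fold change of 4.05. Vpreb3, which codes for a VpreB-like protein that binds newly made heavy chains in precursor B cells, followed with an AUC of 0.982 and the highest log2 fold change of the 20 genes, 4.16, or 17.9-fold. Its share of cells above 0 was 99.3% in Pre/pro B cells and 45.0% in all other cells. Vpreb3, Igll1, Akap12 and Pax5, the 4 markers set together with the choice of this population, were among the 20 genes. All 4 belong to the list that defines the members, so their presence is no independent check of the name. The study itself had named the population by Pax5 and Vpreb3. Both were also listed for B cells, whereas Akap12 and Igll1 were listed for Pre/pro B cells alone.

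Igll1 codes for the lambda-like part of the surrogate light chain and closed the list. It had an AUC of 0.833, a log2 fold change of 2.68 and values above 0 in 82.6% of Pre/pro B cells against 33.5% of all other cells, the lowest share inside the population among the 20 genes. Just ahead of it stood Tcf3 with an AUC of 0.843. No list in the table is longer than 20 genes, and the values of the next genes of Pre/pro B cells are not shown. The lowest AUC of the whole table was 0.801, so further genes with an AUC below 0.833 may have been left out by the length of the list. In the mouse genome (mm10, RefSeq annotation of GRCm38.p6), Igll1 lies on chromosome 16 from 16860671 to 16863985, and Vpreb1, a VpreB gene of the surrogate light chain, lies 4415 bases beyond it. Vpreb1 was not listed for any population. On a list of 7 genes for the surrogate light chain and pre-B receptor, 4 were listed for Pre/pro B cells, against 3 for B cells. The 4 were Vpreb3, Igll1, Ighm and Cd79b, of which Igll1 alone codes for a part of the surrogate light chain. Their median log2 fold change in Pre/pro B cells was 2.85, beside 2.70 for all 20 genes and 2.06 for the 293 entries of the table. This list and those below were chosen with earlier results of these data known, so their counts are description only. The share to set beside each count is that of all genes, since each B population listed 20 of the 234 different genes.

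Vpreb3 and Chchd10 are neighbours in the genome, and both stood among the 4 leading genes. Chchd10, which codes for a protein of the mitochondrial intermembrane space, had an AUC of 0.962, a log2 fold change of 3.51 and values above 0 in 97.6% of Pre/pro B cells against 54.4% of all other cells. It lies on chromosome 10 from 75933130 to 75937750, and Vpreb3 on the same chromosome from 75943024 to 75949657, with 5273 bases between them and the same strand. The 250 bases before a transcript start are shown for these neighbours and for Igll1, because these genes carried the rarer motifs of the search below. The sequences are from RefSeq and GRCm38.p6 and run 5′ to 3′ on the strand of the gene. Capitals mark the octamer in Vpreb3 and Chchd10 and the core site of EBF factors in Igll1. The windows are chr10:75948050-75948299 for Vpreb3, chr10:75932880-75933129 for Chchd10, both on the plus strand, and chr16:16863986-16864235 on the minus strand for Igll1. The start used for Vpreb3 lies inside the span that RefSeq gives for the gene.
Vpreb3: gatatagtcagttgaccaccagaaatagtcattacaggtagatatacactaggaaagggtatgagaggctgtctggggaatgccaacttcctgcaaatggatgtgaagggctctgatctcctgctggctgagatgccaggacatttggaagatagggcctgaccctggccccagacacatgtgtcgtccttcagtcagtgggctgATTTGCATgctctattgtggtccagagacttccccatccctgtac
Chchd10: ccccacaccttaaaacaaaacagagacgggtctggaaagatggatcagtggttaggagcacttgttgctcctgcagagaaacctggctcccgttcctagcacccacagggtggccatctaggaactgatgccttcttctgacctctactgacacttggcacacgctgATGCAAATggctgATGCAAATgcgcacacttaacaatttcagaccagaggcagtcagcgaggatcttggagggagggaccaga
Igll1: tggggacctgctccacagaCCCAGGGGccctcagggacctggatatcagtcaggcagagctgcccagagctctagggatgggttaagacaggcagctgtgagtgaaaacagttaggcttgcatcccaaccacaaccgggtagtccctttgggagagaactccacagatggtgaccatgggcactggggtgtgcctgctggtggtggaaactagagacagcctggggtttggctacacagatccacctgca

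Promoter windows from 250 bases before to 50 after a start were given for 15 of the 20 genes, in 17 windows, and 3 motifs were searched on both strands. The octamer, ATGCAAAT, is bound by Oct factors together with the coactivator that Pou2af1 codes for. It was found in 2 of the 17 windows, those of Vpreb3 and Chchd10, and in 1.74% of all 32851 mouse windows. Vpreb3 held it once, as ATTTGCAT on the opposite strand from 45 to 38 bases before the start. Chchd10 held it at 2 places, from 83 to 76 and from 70 to 63 bases before the start. The core site of EBF factors, CCCNNGGG, was found in 1 window, that of Igll1, from 231 to 224 bases before the start, and in 13.7% of all windows. The E-box, CANNTG, to which the E proteins made from Tcf3 bind, was found in 13 of the 17 windows (76.5%), against 72.3% of all windows. Before the start alone it was in 64.7%, against 66.2% of all windows, so no difference in either direction can be given. Both octamers of Chchd10 overlapped an E-box match, which follows from the letters, since an octamer followed by G contains CAAATG. Among the 15 windows of genes listed for B cells, 2 held the octamer, again those of Vpreb3 and Chchd10, 4 the EBF core and 10 the E-box. These are matches of letters and not measured binding sites.

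Transcription factors of the B lineage made up 5 of the 20 genes and stood between the first and the 19th place by AUC. Of 15 such genes, 5 were listed for Pre/pro B cells, against 4 for B cells, and 3 of them, Ebf1, Pax5 and Bach2, for both. For some population 8 of the 15 were listed, and each B population listed 20 of the 234 different genes. Bach2, a repressor that holds back plasma cell development, had an AUC of 0.944 and a log2 fold change of 3.07, with values above 0 in 96.3% of Pre/pro B cells and 56.4% of all other cells. Pax5, the factor that keeps cells committed to the B lineage, had an AUC of 0.906 and a log2 fold change of 2.43. Its shares were 92.1% in Pre/pro B cells and 33.0% in all other cells, the second largest gap of the 20 genes at 59.1 percentage points. Pou2af1, the octamer coactivator gene, was above 0 in 89.7% of Pre/pro B cells and 35.3% of all other cells, with a log2 fold change of 2.48 and an AUC of 0.895. Tcf3 had the lowest log2 fold change of the 20, 2.20, and was above 0 in 88.7% of Pre/pro B cells against 65.0% of all other cells. Pou2af1 and Tcf3 were listed for Pre/pro B cells alone, while Pou2f2, the gene of an Oct factor, was listed for B cells and not for Pre/pro B cells. The levels of genes in a population that does not list them are not shown.

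Genes of early progenitors were listed as well. Sox4, a transcription factor gene that progenitor B cells need, had a log2 fold change of 2.92 in Pre/pro B cells and 1.87 in Lymphomyeloid prog II, the other population that listed it, with AUCs of 0.899 and 0.874. Myb, a transcription factor gene of immature blood cells, had 2.31 in Pre/pro B cells and 2.06 in Myeloid prog, but its AUC was lower in Pre/pro B cells, 0.882 against 0.922. These were 2 of 12 genes on the list of early progenitor factors and receptors. No gene of that list was listed for B cells, and 7 were listed for some population. Each B population listed 20 of the 234 different genes, so counts this small are no test of a difference between them. Rag1, Rag2, Dntt and the other genes of a list of 5 recombination genes were listed for none of the 17 populations.

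Of 19 genes of chromatin and chromosomal proteins, 5 were listed for Pre/pro B cells, 0 for B cells and 8 for some population. Both B populations listed 20 of the 234 different genes. The list was chosen with earlier results of these data known, so these counts are no test of a difference between the populations. Ezh2, the methyltransferase of the Polycomb repressive complex that marks histone H3, had a log2 fold change of 2.82 and an AUC of 0.916. Smarca4, the motor of a chromatin remodelling complex, had 2.60 and an AUC of 0.905. Hmgb1, a DNA-bending protein gene, had 2.22 and an AUC of 0.914, and Cecr2, a bromodomain gene of another remodelling complex, 2.37 and an AUC of 0.922. H1f5, a linker histone gene made mainly in dividing cells, had a log2 fold change of 2.27 in Pre/pro B cells, 2.00 in Monocyte prog I and 1.37 in Immature Neutrophils I. Its AUCs lay close together, at 0.844 in Pre/pro B cells, 0.841 in Monocyte prog I and 0.846 in Immature Neutrophils I. The median log2 fold change of the 5 genes in Pre/pro B cells was 2.37. Ezh2, Smarca4 and Hmgb1 were above 0 in most cells of the marrow, in 98.7%, 98.0% and 99.2% of Pre/pro B cells and in 76.0%, 76.2% and 87.7% of all other cells. Hmgb1 has 10 pseudogenes by name in the mouse annotation, and whether reads were shared among such copies was not tested. None of 26 cell cycle genes, Mki67 and Top2a among them, was listed for Pre/pro B cells, while 10 were listed for other populations. Their levels in Pre/pro B cells are not shown, so this says nothing of how many of these cells divide.

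Of the remaining genes, Akap12, Myl4 and Pafah1b3 were listed for Pre/pro B cells alone and are not classical genes of the lineage. Akap12, which codes for a scaffold of protein kinase A, was the third gene by AUC at 0.972, with a log2 fold change of 2.86. It had the largest gap between shares, with 97.8% of Pre/pro B cells above 0 against 33.4% of all other cells. Myl4, the gene of a myosin light chain best known from the embryonic heart, had a log2 fold change of 2.91 and shares of 85.7% in Pre/pro B cells and 30.3% in all other cells, the lowest share of other cells among the 20 genes. Pafah1b3, a catalytic subunit gene of platelet-activating factor acetylhydrolase, had 2.43, with 89.0% against 45.8%. Akap12 lies on chromosome 10 from 4266329 to 4359471, Myl4 on chromosome 11 from 104546017 to 104587215 and Pafah1b3 on chromosome 7 from 25295048 to 25297986, all annotated as protein-coding.

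**Figure D1:**
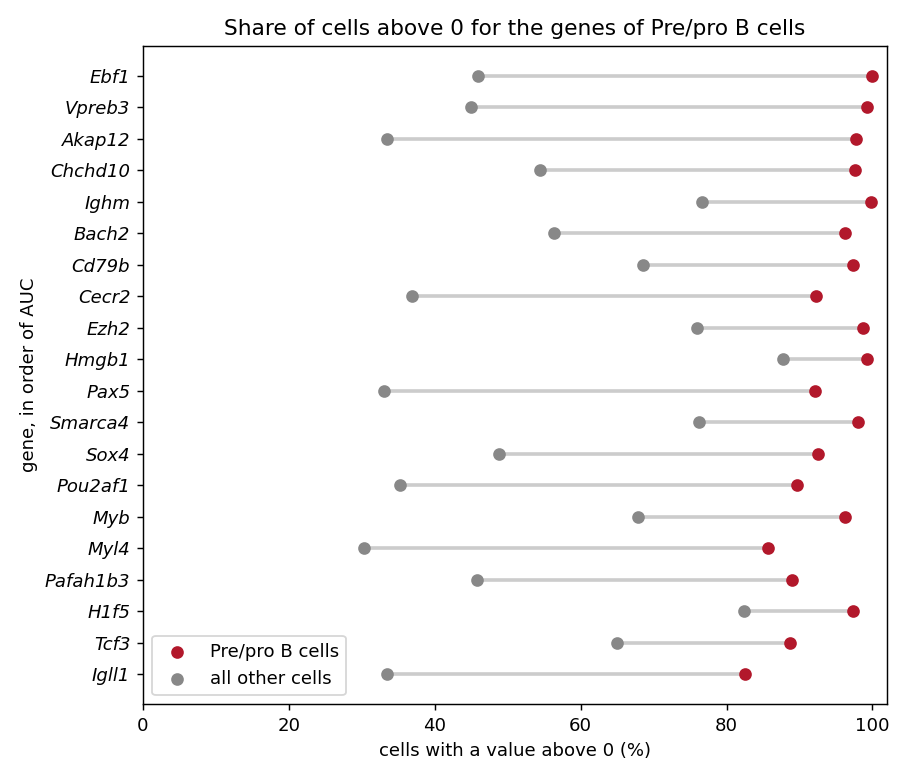
Percentage of cells with a value above 0 (x axis) for the 20 genes of Pre/pro B cells in order of AUC (y axis), in Pre/pro B cells (red) and in all other cells (grey). The share lay between 82.6% and 99.9% in Pre/pro B cells, while that of all other cells ran between 30.3% for Myl4 and 87.7% for Hmgb1.

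For many of these genes, a value above 0 was common outside Pre/pro B cells too. In Pre/pro B cells, 15 of the 20 genes were above 0 in more than 90% of cells, but 10 of the 20 were also above 0 in more than 50% of all other cells, and 6 stayed under 40% there. These 6 were Akap12, Cecr2, Pax5, Pou2af1, Myl4 and Igll1. Even Ighm, the mu heavy chain gene, was above 0 in 99.8% of Pre/pro B cells and in 76.7% of all other cells. Whether the authors took shares from counts of transcripts or from values corrected between samples is not stated in the labels, the methods or the table, so a share above 0 cannot be read as a share of cells that make the transcript. By the median over its genes, the share of other cells was 51.6% for Pre/pro B cells and 49.8% for B cells, with 67.5% over all entries, and only B cells and T/NK cells had lower medians than Pre/pro B cells.

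Presence is used here for a value above 0, which is not the presence of a transcript if values had been corrected between samples. The AUC that presence alone would give follows from the 2 shares, as 0.5 plus 0.5 times their difference expressed as fractions. For Akap12 it was 0.822 of the listed 0.972, and for Igll1 0.746 of 0.833, so most of the listed separation above chance is given by the division of values at 0. For Hmgb1 it was 0.558 of 0.914, for Ighm 0.616 of 0.959 and for Ezh2 0.614 of 0.916, and there most of it lay beyond that division. The division gave the larger part for 10 of the 20 genes and the smaller part for the other 10. The part beyond presence was largest for Hmgb1 at 0.357 and smallest for Myl4 at 0.087. Of the 5 chromatin genes, 4 had more than 0.25 beyond presence, and the exception was Cecr2 at 0.146. Those 4 were above 0 in 76.0% to 87.7% of all other cells, which keeps the AUC from presence low. Since no gene of the list had an AUC below 0.833, a large part beyond presence follows from being listed. It is not particular to chromatin genes, as Ighm had 0.3435 and Cd79b 0.2975. The median of this part was 0.220 for Pre/pro B cells, 0.187 for B cells and 0.229 over all entries.

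**Figure D2:**
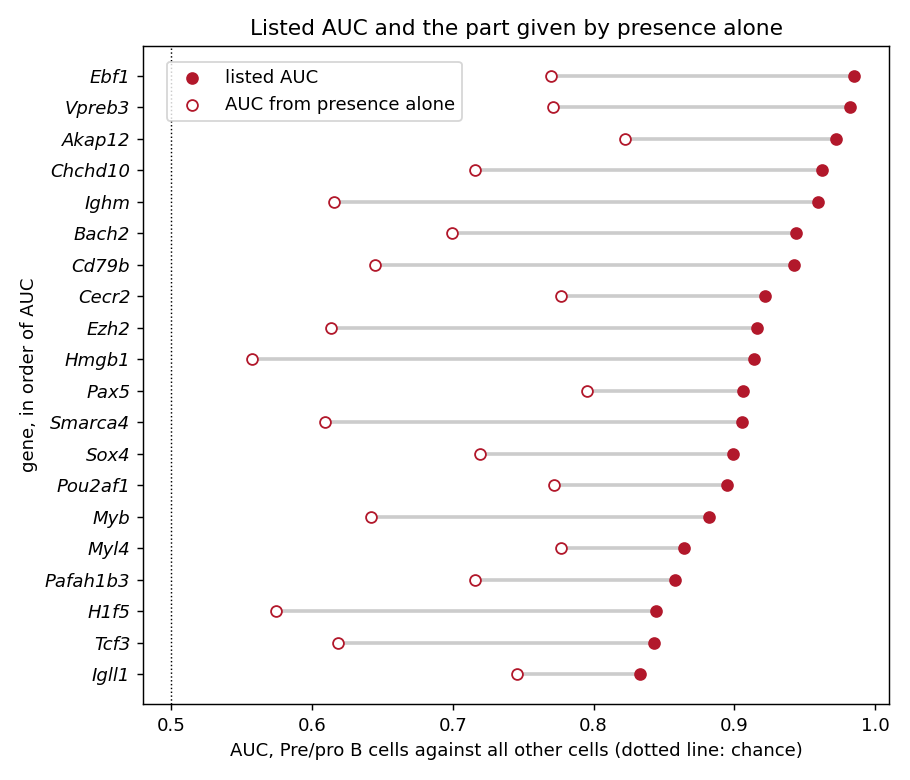
Listed AUC (filled) and the AUC from presence alone (open) for the 20 genes of Pre/pro B cells against all other cells (x axis, dotted line at chance), in order of listed AUC (y axis). Akap12 had the highest value from presence alone, 0.822, and Hmgb1 the lowest, 0.558, although their listed AUCs were 0.972 and 0.914.

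Pre/pro B cells and B cells shared 7 genes, 35% of each list, and the shared genes differed in which population had the higher log2 fold change. Ighm had a log2 fold change of 2.98 in Pre/pro B cells and 4.05 in B cells. Cd79b, the gene of a signalling chain of the B cell receptor, had 2.72 in Pre/pro B cells and 4.13 in B cells, a difference of -1.41. Pax5 had 2.43 in Pre/pro B cells and 3.26 in B cells. Vpreb3 went the other way, with 4.16 in Pre/pro B cells and 3.69 in B cells, as did Chchd10, with 3.51 and 3.06. Ebf1 (4.05 in Pre/pro B cells and 4.00 in B cells) and Bach2 (3.07 and 2.98) differed by at most 0.10. In number, 4 of the 7 genes had the higher log2 fold change in Pre/pro B cells and 3 in B cells. The median difference, Pre/pro B cells minus B cells, was 0.06 and the mean -0.32, so no common direction can be given. All 7 genes were above 0 in a larger share of Pre/pro B cells than of B cells, from 99.8% against 99.4% for Ighm to 96.3% against 81.9% for Bach2. The lists as a whole differed in the same direction. By the median over its genes, the share inside was 96.8% for Pre/pro B cells and 89.4% for B cells, the lowest of the 17 populations. Over all entries it was 96.5%, so the direction is not particular to the 7 genes. Vpreb3 was above 0 in 99.3% of Pre/pro B cells and 87.9% of B cells, and Pax5 in 92.1% and 81.5%. The AUC was higher in Pre/pro B cells for 5 of the 7, the exceptions being Ighm (0.959 against 0.977) and Cd79b (0.942 against 0.954). Pax5 thus had the higher AUC but the lower fold change in Pre/pro B cells. Each value compares a population with all other cells, the other B population included, and is not a contrast between the 2 populations.

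**Figure D3:**
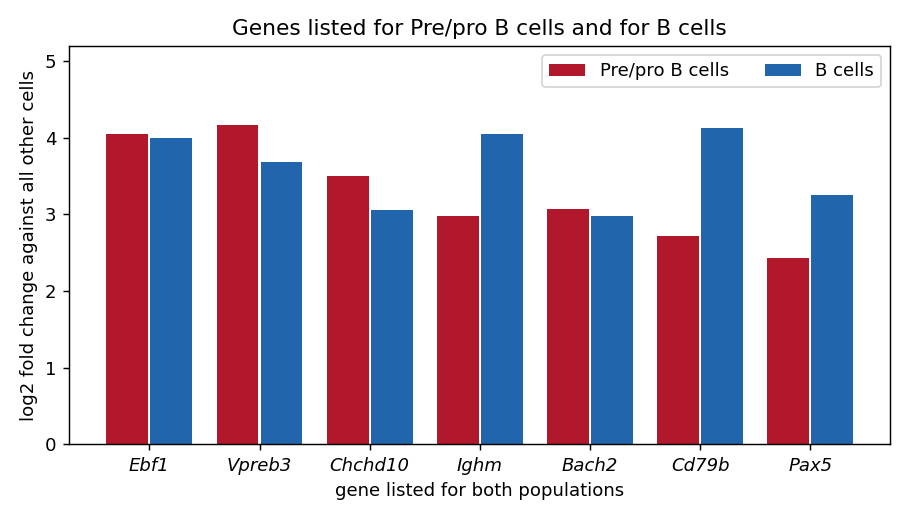
Log2 fold change against all other cells (y axis) for the 7 genes listed for both populations (x axis), in Pre/pro B cells (red) and B cells (blue). Vpreb3 and Chchd10 stood higher in Pre/pro B cells, Ighm, Cd79b and Pax5 in B cells, and Ebf1 and Bach2 were nearly level.

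The remaining 13 genes of B cells included 3 of 18 genes on a list meant for later B cells, Fcmr, the gene of the IgM Fc receptor, with a log2 fold change of 2.57, Ralgps2 at 2.38 and Ly6d at 3.16. Ly6d is also known to mark early steps into the B lineage and stood on the list of plasmacytoid dendritic genes too, so it does not speak for maturity. None of the 18 genes was listed for Pre/pro B cells. Likewise, Pre/pro B cells listed 0 of 11 plasma cell genes, 0 of 14 T and NK cell genes, 0 of 14 neutrophil genes, 0 of 9 monocyte and macrophage genes, 0 of 7 plasmacytoid dendritic genes and 0 of 8 erythroid genes. This says only that they were not top markers, since their levels in Pre/pro B cells are not shown. The plasma cell genes, which myeloma cells would carry, were listed for none of the 17 populations.

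The deposited shares also bound the size of the population. For a gene listed for several populations, the share of all cells above 0 must be the same number whichever entry it is computed from, and this gave 69 equations over 50 genes. Population sizes that sum to the whole satisfied all 69 within the rounding of the shares. Under them Pre/pro B cells held between 1.67% and 2.69% of all cells compared, and B cells between 2.63% and 3.97%. Pre/pro B cells were smaller than B cells in every solution, with a difference of -1.33 to -0.955 percentage points (Pre/pro B cells minus B cells), and both together held 4.30% to 6.61%. In every solution 12 populations were larger than Pre/pro B cells and 2 smaller, Lymphomyeloid prog II and Eosinophil/Basophil prog, while the order against Monocytes and Immature Neutrophils III was not fixed by the equations. With a rounding error of 0.001 allowed, or from the genes shared with B cells only, the range for Pre/pro B cells was wider, 0.950% to 3.37% or 1.67% to 3.73%. Sizes that decline in the order in which the table names the populations, with Pre/pro B cells in place 15, also satisfied the equations. These sizes pool all mice after sorting and filtering, and say nothing of single mice or groups. The study reports a strongly lower proportion of marrow B cells in mice with tumor, whether treated with CST6 or not. The pooled sizes thus mix unlike mice and do not describe marrow without tumor.

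**Figure D4:**
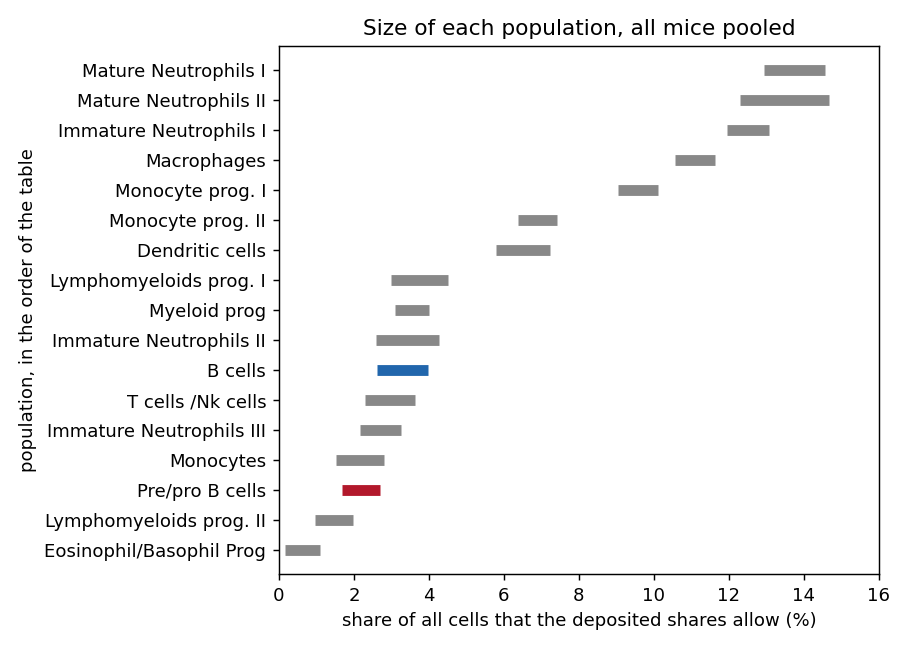
Share of all cells (x axis, percent) that the rounded deposited shares allow for each of the 17 populations (y axis, in the order of the table), with Pre/pro B cells in red and B cells in blue. Each bar spans the lowest to the highest possible value, 1.67% to 2.69% for Pre/pro B cells and 2.63% to 3.97% for B cells.

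With these sizes, most cells above 0 for any of the 20 genes lay outside Pre/pro B cells. The population held 4.74% to 7.49% of all cells above 0 for Akap12, the highest of the 20 genes, 4.53% to 7.17% of those for Pax5 and 1.89% to 3.03% of those for Hmgb1, the lowest. B cells did not account for the rest. Outside both B populations, Ebf1 was still above 0 in 43.8% to 44.6% of cells, Vpreb3 in 43.1% to 43.9%, Pax5 in 30.9% to 31.7% and Ighm in 75.7% to 76.1%. The part that free RNA, correction between samples or other cells with these transcripts had in these shares was not tested.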

How the data were processed

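Per the labels, Chromium 3′ single-cell libraries were made from marrow mononuclear cells of 9 mice. The processing notes name Cell Ranger, Seurat 4 and mm10, and the study's methods describe cell filters, integration by reciprocal principal component analysis and Louvain clusters. The methods name MAST for the marker search, while the columns are those of Seurat's receiver operating characteristic test. How doublets were handled is not stated there. The authors' deposited table gives scores (AUC and power), the mean difference on the natural log scale, the log2 fold change, and the fraction of cells above 0 in the population and in all other cells, rounded to 3 decimals and printed here as percentages. It has 0 columns of values per sample. Depth per sample is unknown, and counting intervals are not given.

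All 20 genes of Pre/pro B cells were named. The members and the 13 gene lists were chosen with earlier results of these data known. Population sizes were bounded by linear programming (scipy 1.17.1). The code was run on simulated shares that obeyed the same equations, which checks the code and not the deposited shares. Annotation and promoters were from RefSeq (GRCm38.p6), which is the same build as mm10. All 20 symbols matched the annotation. No tests were made; the alternatives are given in the closing section.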

Additional observations from a re-analysis of the deposited data

How the results depend on the processing

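The table holds top genes only, pools all mice and has no replicate values, so no statement on error, on single mice or on the effects of tumor or CST6 could be made. A gene that a population does not list may still be high there. Of the genes shared by Pre/pro B cells and B cells, 7 in all, 5 were shared among the 10 genes of highest AUC in each list, 6 among the 10 of highest log2 fold change, and 3 without the genes the study names as markers. The median difference in log2 fold change of the shared genes, 0.06, was 0.10 without those genes, and the mean over the shared genes was -0.32, the opposite sign, because Ighm, Cd79b and Pax5 differed more than the others. Of the 5 leading genes by AUC, 4 also led by log2 fold change and 1, Akap12, by the gap between shares. The lowest possible size of Pre/pro B cells, 1.67% of cells, was 0.950% with a rounding error of 0.001 allowed and the same in the other alternatives. The highest, 2.69%, was 3.37% with that rounding error, and 3.73% both from the genes shared with B cells only and when sizes were not required to sum to the whole. With only the 250 bases before the start searched, the octamer was again found in 2 member windows (1.60% of all windows) and the EBF core in 1 (11.8% of all). The E-box was found in 11 against 13, or 64.7% of member windows beside 66.2% of all, so the members stood below all windows there and above them with the 50 bases after the start. No paired analysis was possible because the table has no values per sample.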
